A study of Mus musculus with 32 samples.

Results

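The samples described here are the 6 arrays of 30-week-old mice whose livers were collected at zeitgeber time (ZT) 18, out of 32 arrays in the series. They were chosen by the time and age in their titles. All mice were male wild-type C57BL/6 animals, housed singly, with 1 liver per 1-colour Agilent array. Both schedules had 12 h of light and 12 h of darkness, and the 3 steady mice lived on that cycle throughout. The 3 jet-lagged mice were moved, from 4 weeks of age on, back and forth between 2 rooms whose light onset lay 8 h apart. ZT counts the hours after light onset, so that ZT18 falls in the middle of the dark phase, when mice are active and feed. The labels do not say when the jet-lagged mice had last been shifted, nor to which light onset their ZT refers. The other 26 arrays cover both schedules at ZT2, ZT10 and ZT18 and at 12 and 30 weeks, in 12 groups of 2 or 3 mice. Mouse numbers name separate animals and pair none of them across schedules.

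The mammalian clock is a transcriptional loop. The activators BMAL1 (gene Arntl) and CLOCK bind E-box sequences and switch on their own repressors, the PER and CRY proteins, together with Nr1d1 and Nr1d2, which encode the nuclear receptors REV-ERB alpha and beta. The REV-ERB proteins in turn repress Arntl, Clock, Cry1 and Nfil3 at ROR elements, which the activating ROR receptors also bind. DBP, TEF and HLF activate, and NFIL3 represses, at another site, the D-box, and carry the rhythm into metabolic genes. In liver this loop, together with the timing of meals, times the synthesis of cholesterol, fatty acids, glycogen and haem.

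The promoters of some clock genes hold such sites close to the annotated start. The 250 bases upstream of the annotated start (RefSeq, GRCm38.p6) are printed for the called clock genes that hold an E-box there. Nfil3 and Per3, which were not called, are printed as examples of the other sites. Sites are in capitals. The E-box letters were CACGTG, the same on both strands, and the ROR element was TAGGTCA or TGGGTCA on either strand. The D-box was TTATGTAA or TTACGTAA on either strand. None of these motifs contains another.
Ciart, chr3:95882229-95882478, minus strand, E-box at 3 places: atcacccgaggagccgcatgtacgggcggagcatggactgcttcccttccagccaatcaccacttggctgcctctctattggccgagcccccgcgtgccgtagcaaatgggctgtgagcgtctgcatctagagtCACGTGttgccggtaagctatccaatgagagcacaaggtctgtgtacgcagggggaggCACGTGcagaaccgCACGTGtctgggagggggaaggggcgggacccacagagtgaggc
Cry1, chr10:85185055-85185304, minus strand, 1 E-box: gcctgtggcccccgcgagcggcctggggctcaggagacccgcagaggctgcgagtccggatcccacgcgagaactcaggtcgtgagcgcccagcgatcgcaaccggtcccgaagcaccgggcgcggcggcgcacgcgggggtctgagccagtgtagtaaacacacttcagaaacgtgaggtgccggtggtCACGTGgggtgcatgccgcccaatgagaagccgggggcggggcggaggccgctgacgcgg
Tef, chr15:81811164-81811413, plus strand, 1 E-box: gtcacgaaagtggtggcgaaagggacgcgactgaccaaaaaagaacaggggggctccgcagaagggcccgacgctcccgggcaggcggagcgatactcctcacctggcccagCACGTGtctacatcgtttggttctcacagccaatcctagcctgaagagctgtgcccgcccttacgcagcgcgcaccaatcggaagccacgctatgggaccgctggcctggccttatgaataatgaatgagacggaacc
Nfil3, chr13:52981040-52981289, minus strand, 1 ROR element: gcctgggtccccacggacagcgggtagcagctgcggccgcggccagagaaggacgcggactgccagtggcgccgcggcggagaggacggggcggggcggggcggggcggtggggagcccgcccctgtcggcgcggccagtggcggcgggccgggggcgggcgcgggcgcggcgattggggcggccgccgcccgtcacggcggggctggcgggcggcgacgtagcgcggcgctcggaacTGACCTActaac
Per3, chr4:151044666-151044915, minus strand, D-box at 2 places: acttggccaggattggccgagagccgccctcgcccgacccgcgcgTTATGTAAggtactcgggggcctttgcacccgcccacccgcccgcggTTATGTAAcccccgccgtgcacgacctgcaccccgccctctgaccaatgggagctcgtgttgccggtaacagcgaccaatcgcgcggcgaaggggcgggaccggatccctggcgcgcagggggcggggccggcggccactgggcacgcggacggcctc
An E-box lay in this window in 5 of 19 core clock genes with a promoter in the RefSeq table (26.3%), against 6.86% of all 27025 genes in it and 9.32% of the genes tested. A D-box lay in 2 of the 19, Per3 being 1 of them, and a ROR element in 1. Of the genes higher in jet-lagged mice 12.5% of 256 had one, and of the lower genes 8.76% of 251. The ROR element was in 4.30% of the higher and 7.17% of the lower genes, against 5.69% of the genes tested, and the D-box in 1.17% and 1.20%, against 0.917%. Of 8 called clock genes with a promoter in that table, 3 held an E-box, 0 a ROR element and 0 a D-box. The windows of Arntl, Clock, Dbp, Nr1d1 and Nr1d2 held none of these motifs. Tef has another window, at a different annotated start (chr15:81802423-81802672), which also holds 1 E-box and is not printed. A gene was counted if any of its windows held the motif. A match describes the letters of a window and not binding.

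On the 6 arrays 26199 to 29871 of 55681 probes were well above background (47.1% to 53.6%) and 0 spots were saturated. Values below are log2 processed signals relative to the 75th percentile of their array, so that 0 is the percentile itself. A change is the fitted difference, jet-lagged minus steady, ± its standard error, with 3 mice against 3. The fit lets arrays of 1 slide vary together, so a change can differ a little from the difference between the plain means. The p-values are limma's, adjusted by Benjamini-Hochberg over 23110 genes, and a gene is called higher or lower at an adjusted p under 0.05. The mean of 12 hepatocyte markers was level across the 6 mice, at 9.09 to 9.18. Single markers were not all level, with 3 higher and 3 lower without overlap between the groups (13.3% and 9.96% over all genes). None of them was called. Marker means of other tissues were not level. The mean of 41 skeletal muscle markers was 0.84, -0.17 and 1.18 in the steady group, against 2.31, 2.08 and -1.16 in the jet-lagged group. For 15 pancreatic acinar markers it was -2.79, -1.92 and -0.68 against -2.84, 2.94 and -2.77, so that jet-lagged mouse 2 stood apart from the other 5. Macrophage markers, 13 of 14 measured, averaged 2.21, 2.24 and 2.76 in steady and 2.83, 2.99 and 3.08 in jet-lagged livers, which did not overlap, though 0 of them were called. The part of these tissues in the results was not tested beyond the fits that follow. In whole liver a change in the number of cells of a type and in the RNA of each cell cannot be told apart.

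Across all genes 803 were called (3.47%), 394 higher (1.7%) and 409 lower (1.77%) in jet-lagged mice, and 154 of these differed at least 2-fold, 66 higher and 88 lower. With the muscle and acinar marker levels as covariates 787 were called, 724 of them shared. The number rests on few mice. It was 516, 266 and 407 without steady mouse 1, 2 or 3 and 603, 411 and 404 without jet-lagged mouse 1, 2 or 3. It was 54 when only these 6 arrays were fitted. As a fixed block, the slide left 347. Only 1 slide held mice of both schedules (steady mouse 2 and jet-lagged mouse 3), and between these 2 mice 802 of the 803 genes differed in the called direction. That pair is also part of the fit. Of the 803 genes 793 had no overlap between the groups, which fixes their direction between any 2 mice of different schedules. The count therefore does not show whether slide matters.

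Core clock genes were among the genes of largest change. Of 24 measured core clock genes 6 were higher and 4 lower in jet-lagged mice (1.7% and 1.77% over all genes), and the remaining 14 did not pass. The higher genes are known targets of BMAL1 and CLOCK, and the lower ones included both partners of that pair. Not all targets were higher, as Cry1 was lower and Per1, Per2 and Per3 did not pass. Dbp, which encodes an activator at D-boxes, stood at 2.02, 2.46 and 2.72 in steady mice and at 5.60, 5.52 and 5.68 in jet-lagged mice. The groups were far apart, with a change of 3.05 ± 0.42, or 8.31-fold (adjusted p = 0.000368). Tef, its relative, rose by less, from 5.66, 5.67 and 6.03 to 6.77, 6.86 and 6.68 (0.87 ± 0.20, adjusted p = 0.0152). Hlf, the other member of that family, had a change of 0.38 ± 0.13 that did not pass (adjusted p = 0.118).

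**Figure D1:**
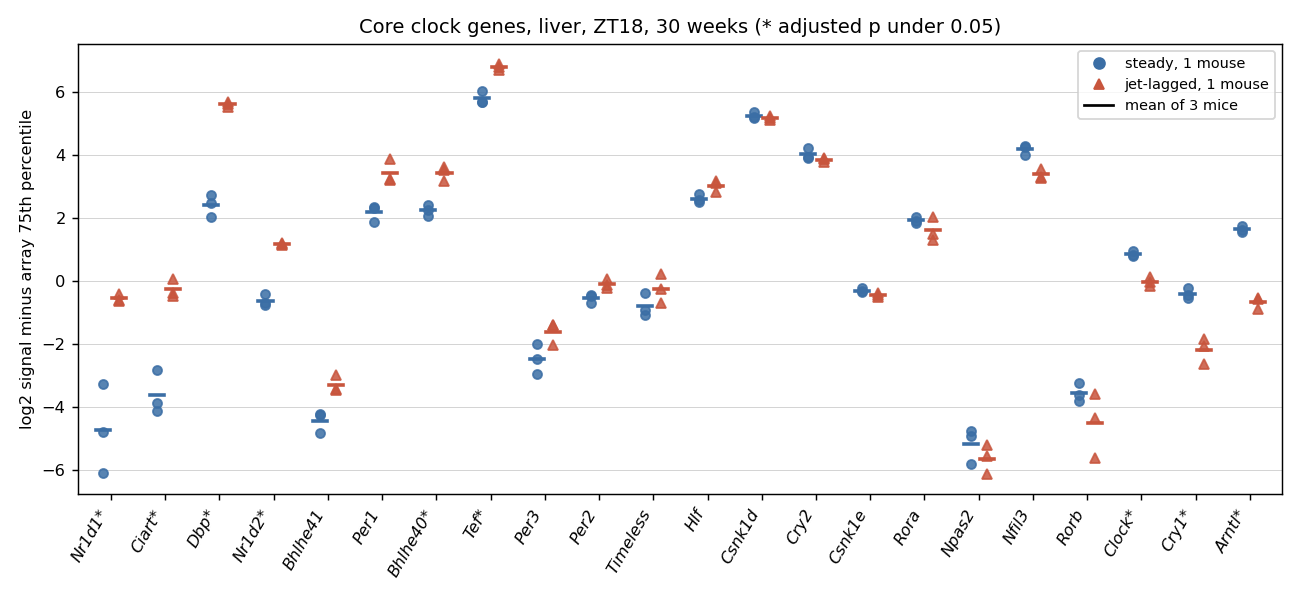
Level of 22 measured core clock genes in each of the 6 mice, as log2 signal minus the array's 75th percentile, ordered by the change. Circles are steady mice, triangles jet-lagged mice, bars the means of 3 mice, and an asterisk marks an adjusted p under 0.05. The groups lie far apart at both ends of the order, from Nr1d1 (4.25) to Arntl (-2.17), and overlap or nearly touch in the middle.

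Of the repressors, Nr1d1 stood at -3.26, -4.81 and -6.11 in steady mice, where it was well above background on 1 of 3 arrays, and at -0.64, -0.61 and -0.43 in jet-lagged mice. The change was 4.25 ± 0.55 (adjusted p = 0.000258), and its size is uncertain because the steady values lie near background. Nr1d2 gave the same picture well above background, at -0.76, -0.70 and -0.42 against 1.19, 1.12 and 1.18 (1.73 ± 0.24, adjusted p = 0.000368). Ciart, a repressor of the BMAL1 and CLOCK pair whose promoter carries the 3 E-boxes shown, was at -3.88, -4.13 and -2.82 in steady mice. In jet-lagged mice it was at 0.06, -0.38 and -0.47, a change of 3.18 ± 0.45 (adjusted p = 0.000371). Bhlhe40, which competes for E-boxes, rose from 2.39, 2.24 and 2.06 to 3.15, 3.61 and 3.50 (1.07 ± 0.26, adjusted p = 0.0231). Its relative Bhlhe41 was well above background on 1 of 6 arrays and did not pass.

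The activators lay on the other side. Arntl was at 1.74, 1.61 and 1.54 in steady mice and at -0.59, -0.54 and -0.91 in jet-lagged mice. Its change of -2.17 ± 0.50 (adjusted p = 0.0164) is a 4.52-fold lower level, with no overlap. Clock fell by 0.95 ± 0.18, from 0.80, 0.83 and 0.94 to -0.05, -0.17 and 0.13 (adjusted p = 0.00424). Cry1, a repressor that peaks late and carries an E-box in the window shown, was also lower, at -0.23, -0.46 and -0.54 against -2.08, -2.65 and -1.85 (-1.61 ± 0.34, adjusted p = 0.00927). Npas2, a stand-in for CLOCK, was not well above background on any of the 6 arrays.

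The period genes did not pass. Per1 was higher in every jet-lagged mouse (3.85, 3.18 and 3.23 against 2.30, 1.86 and 2.35), with a change of 1.09 ± 0.36 and an adjusted p of 0.099. Per2 had a difference of 0.47 ± 0.30 (adjusted p = 0.476) and Per3 of 0.71 ± 0.34 (adjusted p = 0.303), the latter with overlapping groups. Nfil3, the repressor at D-boxes whose promoter shows the ROR element, was lower in each jet-lagged mouse (3.56, 3.29 and 3.26 against 4.25, 3.98 and 4.27), but its change of -0.77 ± 0.26 had an adjusted p of 0.105. Cry2 and the casein kinases Csnk1d and Csnk1e had changes between -0.22 and -0.12, and 0 of these 3 were called. Over all genes 13.3% were higher and 9.96% lower without overlap between the groups, so a lack of overlap alone sets no gene apart here. Of the called clock genes, Dbp, Nr1d1, Nr1d2, Ciart, Clock and Cry1 passed without each of the 6 mice in turn. Arntl passed in 4 of those 6 fits, Tef in 3 and Bhlhe40 in 2. With any 1 of the 6 mice left out, 4 to 6 core clock genes were higher and 2 to 4 lower.

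The time course at 30 weeks sets these levels beside those of the other times. In steady mice Dbp had means of 0.74 at ZT2, 7.11 at ZT10 and 2.40 at ZT18, and in jet-lagged mice 5.22, 5.89 and 5.60. Arntl ran from 2.06 through -4.17 (well above background on 1 of 3 arrays) to 1.63 in steady mice and stayed between -1.27 and -0.49 in jet-lagged mice. For 9 of the 10 called clock genes the jet-lagged mean at ZT18 lay between the steady means of ZT10 and ZT18, with Bhlhe40 above both. These genes were called for their distance from the steady ZT18 mean, so the choice partly set this result. The same share was not taken over all genes. Over the 24 genes the range of the 3 group means had a median of 2.20 in steady and 0.70 in jet-lagged mice, and was smaller in jet-lagged mice for 21. The mean absolute distance of each mouse from the 12-week steady group means, taken over the same genes, gives a single figure per mouse. Each steady mouse lay nearest to ZT18, at 0.38, 0.28 and 0.35. Each jet-lagged mouse lay nearer to ZT10 (0.65, 0.81 and 0.83) than to ZT18 (1.11, 1.07 and 1.05) and farthest from ZT2 (1.90, 1.93 and 1.77). These distances describe the mice and were not tested.

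**Figure D2:**
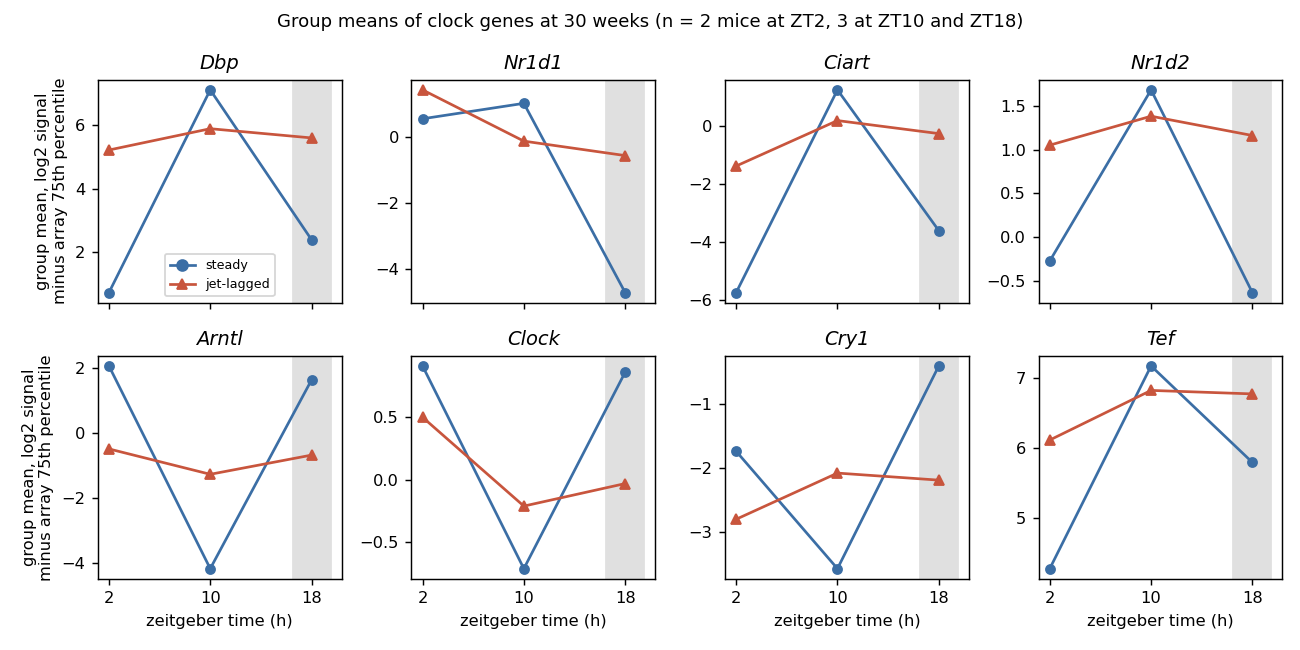
Group means of 8 called clock genes at ZT2, ZT10 and ZT18 in 30-week-old steady (circles) and jet-lagged mice (triangles), as log2 signal minus the array's 75th percentile, with ZT18 shaded and each panel on its own scale. Means rest on 2 mice at ZT2 and 3 at the other times. The jet-lagged means span a smaller range than the steady means in all 8 panels, and the lines cross between ZT10 and ZT18 in each.

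Clock-controlled output genes moved both ways, 7 higher and 6 lower of 29 measured (1.7% and 1.77% over all genes). Their median change was 0.26, against -0.01 over all genes. With any 1 of the 6 mice left out, 3 or 4 were higher and 3 to 5 lower. Rgs16, a regulator of G protein signalling that responds to feeding in liver, showed the largest change of any gene, from -1.04, -1.11 and -1.03 in steady mice to 4.08, 4.15 and 4.13 in jet-lagged mice. The change of 4.98 ± 0.94 is 31.5-fold (adjusted p = 0.00394), and Rgs16 was called in all 19 alternative fits. Elovl3, a fatty acid elongase, was the most reduced gene, at 6.77, 6.55 and 6.56 against 3.74, 3.22 and 3.43 (-3.11 ± 0.51, 8.61-fold lower, adjusted p = 0.0014). Mthfd1l, a mitochondrial enzyme of folate metabolism, was 4.91-fold higher (2.29 ± 0.34, adjusted p = 0.000607). Avpr1a, the liver vasopressin receptor, was lower (-1.89 ± 0.23, adjusted p = 0.000133). Usp2, a deubiquitinase, and Coq10b, a coenzyme Q binding protein, were higher by 1.44 ± 0.37 and 1.35 ± 0.27 (adjusted p = 0.0308 and 0.0068). Dtx4, Ypel2 and Leo1 were lower, by amounts between 0.69 and 1.57 on the log2 scale. Alas1, the rate-limiting enzyme of haem synthesis, rose from 7.16, 7.28 and 7.37 to 9.31, 9.36 and 9.03 (1.72 ± 0.43, adjusted p = 0.0246). The groups are tight, yet with any 1 mouse left out Alas1 missed the threshold (largest adjusted p = 0.122).

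Some sterol genes were lower. Of 26 measured genes of cholesterol synthesis and uptake 5 were lower and 0 higher (1.77% and 1.7% over all genes). All 26 changes were negative, and their median was -0.52. Hmgcs1, which makes the precursor of mevalonate, stood at 6.54, 7.14 and 6.62 in steady mice and at 5.04, 5.45 and 5.54 in jet-lagged mice (-1.58 ± 0.32, adjusted p = 0.00643). Mvd, which ends the mevalonate branch, was at 2.93, 3.66 and 3.20 against 1.41, 2.38 and 1.98 (-1.49 ± 0.25, adjusted p = 0.00179). Sqle (-1.20 ± 0.30), Fdft1 (-0.75 ± 0.20) and Acat2 (-0.57 ± 0.14) were the other called members. Mvd was called in all 6 fits without a mouse, Hmgcs1 in 5, Sqle and Acat2 in 2 and Fdft1 in 0. Without 1 mouse the count of lower members ranged from 1 to 4, the fewest without steady mouse 2, and the median from -0.61 to -0.41. At 12 weeks 10 of the 26 were lower at ZT18, against 1.89% of all genes. The sterol exporters Abcg5 and Abcg8, which form 1 transporter, were the called members of the bile acid list, both higher. Abcg8 went from -1.06, -1.63 and -1.34 to 0.16, -0.09 and -0.67 (1.15 ± 0.26, adjusted p = 0.013), and Abcg5 changed by 0.96 ± 0.19 (adjusted p = 0.00569). Both lost the call without steady mouse 2. Cyp7a1, which opens the classical route to bile acids, overlapped between groups (-0.21 ± 0.35, adjusted p = 0.855), and 0 of 29 members were lower.

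Fatty acid genes did not follow the sterol genes. Of 34 measured genes of fatty acid and triglyceride synthesis 2 were higher and 4 lower (1.7% and 1.77% over all genes). The median change was 0.27. Without 1 mouse 1 to 3 were higher and 1 or 2 lower. Lpin1, a phosphatidate phosphatase of triglyceride synthesis, stood at 1.89, 0.98 and 0.95 in steady and at 4.36, 3.82 and 3.49 in jet-lagged mice (2.48 ± 0.33, adjusted p = 0.000258). Elovl6, the elongase of newly made palmitate, went from 5.33, 4.68 and 4.90 to 6.34, 6.95 and 6.14 (1.47 ± 0.35, adjusted p = 0.0206). Fasn, the fatty acid synthase, and the desaturase Scd1 had positive changes that did not pass, 1.08 (adjusted p = 0.0761) and 0.90 (adjusted p = 0.0913). The lower members were Elovl3, Insig2 (-1.31 ± 0.29, an anchor that holds back SREBP activation), Acsl3 and Elovl1. In fatty acid oxidation and PPARA targets 3 of 32 were higher and 0 lower (1.7% and 1.77% over all genes). They were Cpt1a, the gate of mitochondrial fatty acid entry (0.75 ± 0.18), Angptl4, an inhibitor of lipoprotein lipase (1.04 ± 0.28), and Ppara itself (0.63 ± 0.17). Without steady mouse 2, jet-lagged mouse 1 or jet-lagged mouse 3 in turn, 0 were called. Pnpla2, the triglyceride lipase of lipid droplets, was the single called gene of 24 on the lipid droplet list (0.63 ± 0.15, adjusted p = 0.0176). A single call says little about a list, with 1.7% of all genes higher. Of 20 lipoprotein genes 0 were called.

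**Figure D3:**
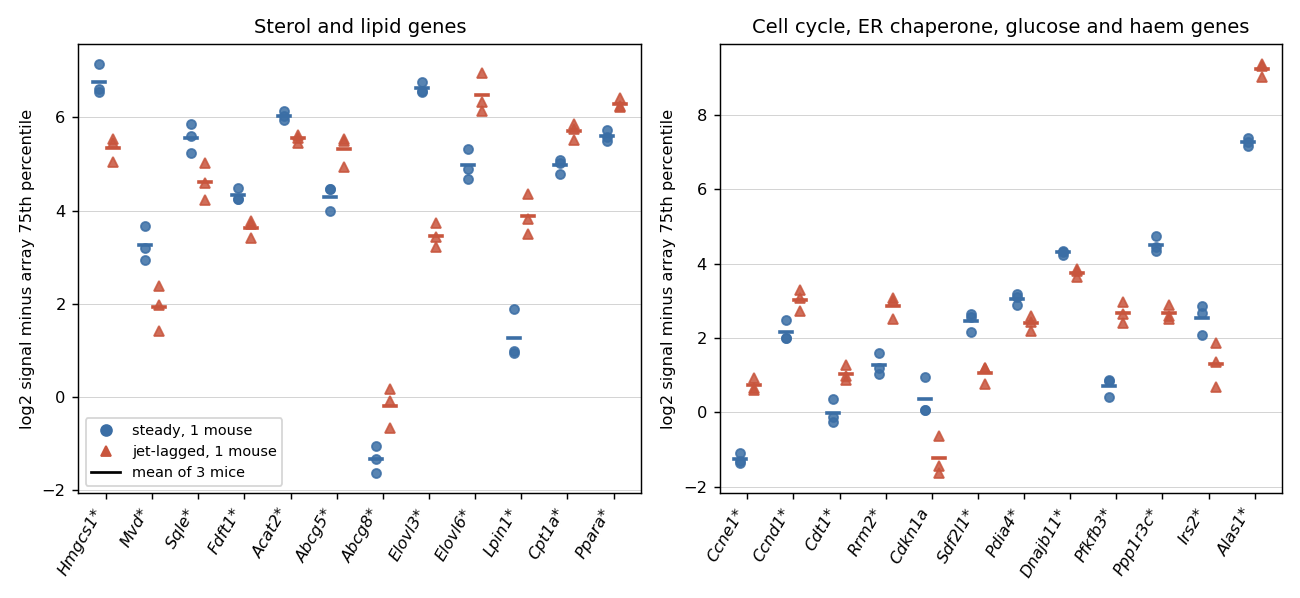
Level in each of the 6 mice of sterol and lipid genes (left) and of cell cycle, chaperone, glucose and haem genes (right), as log2 signal minus the array's 75th percentile. Circles are steady mice, triangles jet-lagged mice, bars means of 3, and asterisks adjusted p under 0.05. Sterol synthesis genes are lower and Abcg5, Abcg8, Elovl6 and Lpin1 higher in all 3 jet-lagged mice, and Cdkn1a is the gene without an asterisk.

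Glycogen and glucose genes split. Of 32 measured, 4 were higher and 3 lower (1.7% and 1.77% over all genes), and without 1 mouse 0 to 2 were higher and 1 or 2 lower. Ppp1r3c, which targets a phosphatase to glycogen, was at 4.33, 4.74 and 4.45 in steady and at 2.52, 2.89 and 2.58 in jet-lagged mice (-1.86 ± 0.39, adjusted p = 0.00924). Gys2, the liver glycogen synthase, was higher by 0.53 ± 0.15 (adjusted p = 0.0454). Pfkfb3, which makes the activator of phosphofructokinase, stood at 0.84, 0.42 and 0.86 against 2.97, 2.63 and 2.40 (1.72 ± 0.41, adjusted p = 0.02), and was called in 1 of 6 fits without a mouse. Txnip, a glucose-induced inhibitor of glucose uptake, rose by 0.89 ± 0.20 and the transporter gene Slc2a2 by 0.48 ± 0.13. Irs2, an adaptor of the insulin receptor, was lower (-1.23 ± 0.33, adjusted p = 0.0369), and its change was -0.80 without jet-lagged mouse 2, where the call was lost. Igfbp2 was lower with overlapping groups (-0.59 ± 0.16, adjusted p = 0.0437). Slc2a4, the insulin-regulated transporter of muscle and fat, was the single called muscle marker, at 0.91, -0.19 and 0.66 against 2.75, 3.37 and 1.86 (2.02 ± 0.46, adjusted p = 0.0159). Jet-lagged mouse 3, whose muscle marker mean was the lowest of the 6, also had the lowest of the 3 jet-lagged values. Over the other 26 arrays Slc2a4 correlated with the muscle marker mean at r = 0.52. The part of muscle in its change was not tested on its own. Slc2a4 was called in 4 of 6 fits without a mouse, with a change of 1.70 without jet-lagged mouse 2.

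Among 25 measured genes of the cell cycle and DNA replication 4 were higher and 0 lower (1.7% and 1.77% over all genes). Their median change was 0.48. Ccne1, the cyclin of entry into S phase, was at -1.37, -1.31 and -1.09 in steady mice and at 0.61, 0.91 and 0.64 in jet-lagged mice (1.96 ± 0.28, 3.90-fold, adjusted p = 0.000368). Rrm2, a subunit of ribonucleotide reductase, went from 1.60, 1.04 and 1.20 to 2.99, 3.08 and 2.51 (1.47 ± 0.26, adjusted p = 0.00227). Cdt1, which licenses replication origins, rose by 1.07 ± 0.20 and Ccnd1, the G1 cyclin, by 0.86 ± 0.22 (adjusted p = 0.00345 and 0.0285). Markers of later phases did not pass, with changes of 0.20 for Mki67 (adjusted p = 0.849) and 0.21 for Ccnb1 (adjusted p = 0.924). Cdkn1a, the cell cycle inhibitor p21, was lower in each jet-lagged mouse (-0.63, -1.63 and -1.44 against 0.94, 0.07 and 0.05), with a change of -1.56 ± 0.51 that did not pass (adjusted p = 0.0985). Without any 1 mouse, 3 or 4 members were called higher. Of 31 genes of ribosome biogenesis 3 were higher (1.7% over all genes), Gnl3, Rrp9 and Rrs1, by 0.64 to 0.88. Without 1 mouse 1 to 4 were higher, and of the 6 such fits Rrs1 was called in 6, Gnl3 in 2 and Rrp9 in 1.

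In the unfolded protein response, which matches chaperones of the endoplasmic reticulum to secretory load, 5 of 30 genes were lower and 1 higher (median -0.24). The shares over all genes were 1.77% and 1.7%. Sdf2l1, a chaperone partner, was at 2.17, 2.55 and 2.64 against 1.20, 0.77 and 1.20 (-1.47 ± 0.36, adjusted p = 0.0241). Pdia4 and Pdia3, disulfide isomerases, and Edem1, of protein degradation, were lower by 0.44 to 0.65 on the log2 scale. Dnajb11 was lower as well by its brightest probe (-0.55 ± 0.11, adjusted p = 0.00779), but the mean of its probes gave 0.73 (adjusted p = 0.0596), so its direction depends on the probe. Hspa5, the main chaperone, had a change of -0.58 that did not pass (adjusted p = 0.0698). Atf3, a stress-induced factor also on the growth control list, was the higher gene (0.99 ± 0.25, adjusted p = 0.0286) and the only one called of 24 there. Without 1 mouse the lower count ranged from 1 (without jet-lagged or steady mouse 2) to 5. Elsewhere calls were few, with 0 or 1 in each direction in the heat shock, interferon, acute phase, iron, xenobiotic, glutathione and pericentral lists. They included Fkbp4, Oasl1, Crp and Aco1 (lower) and Id1, Ephx1 and Znrf3 (higher). Such counts say little about a list, as does the 1 call for growth control, with 1.7% of all genes higher and 1.77% lower. Of the 6 fits without a mouse, Ephx1 was called in 6, Crp and Id1 in 3. Oasl1 and Znrf3 were called in 2 of these fits, and Fkbp4 and Aco1 in 0. Id1, a target of bone morphogenetic protein signalling, changed by 1.49 ± 0.35 (adjusted p = 0.0168) and the detoxifying hydrolase gene Ephx1 by 0.69 ± 0.13 (adjusted p = 0.0043). Periportal genes held 2 lower members of 30 (1.77% over all genes), Gldc, of glycine breakdown (-1.25 ± 0.19, adjusted p = 0.000636), and the adhesion gene Cdh1 (-1.15 ± 0.22, adjusted p = 0.00392). Stat5a and Stat5b, which carry growth hormone signals, were lower by 0.50 and 0.48 on the log2 scale (adjusted p = 0.0322 and 0.00351). Stat5b was called in all 6 fits without a mouse, but Stat5a in 0 of them (largest adjusted p = 0.13). Sox9, of bile duct cells, was the called member of the 8 cholangiocyte markers (-0.96 ± 0.24, adjusted p = 0.0251), and passed in 2 of the 6 fits without a mouse.

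**Figure D4:**
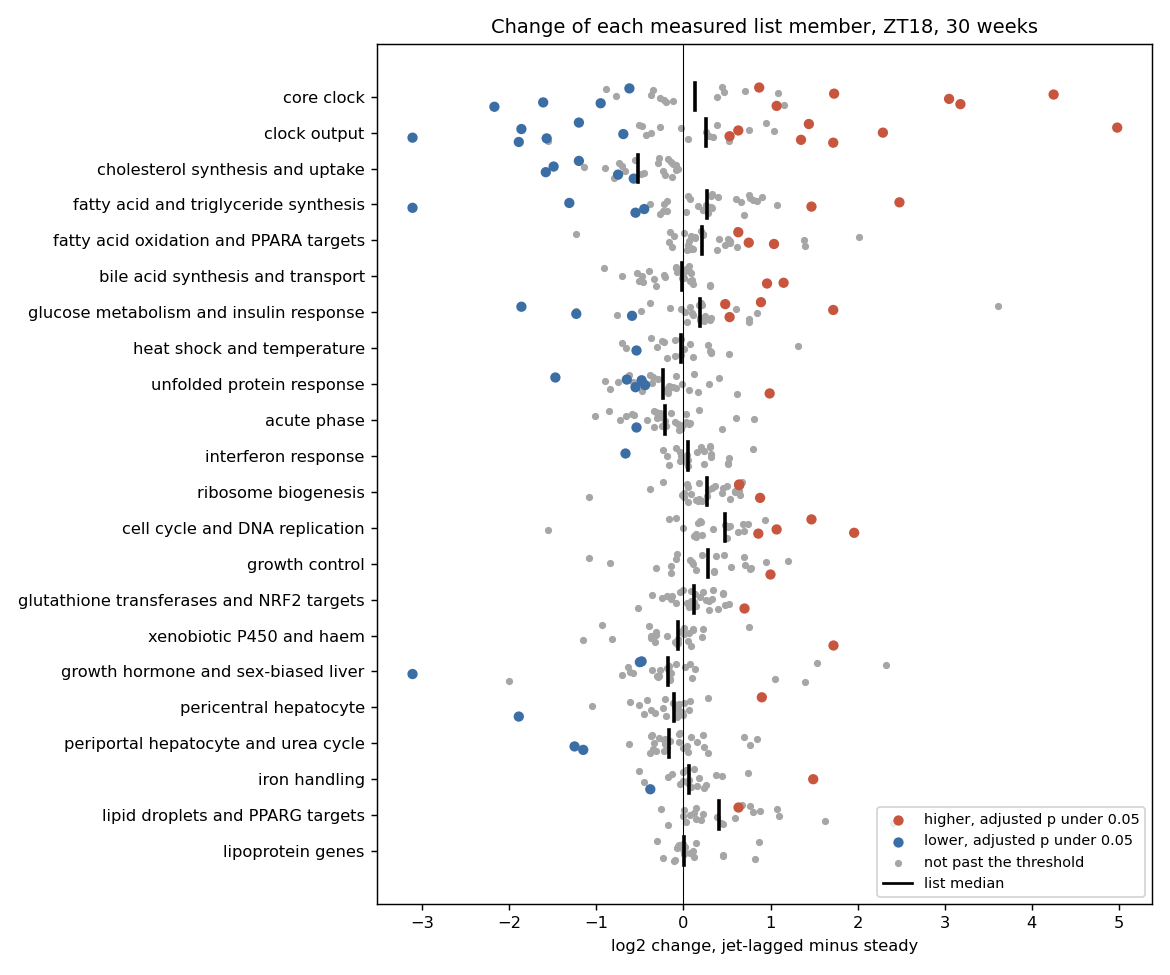
Change of every measured member of the 22 pathway lists, jet-lagged minus steady, on a log2 scale. Coloured points passed an adjusted p of 0.05 (higher or lower), grey points did not, and black bars are list medians. The clock lists spread widest, from -3.11 to 4.98, and the whole sterol list lies below 0 with a median of -0.52.

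Other genes of large change belonged to no list. Tesmin, a gene known from testis, was at -3.76, -3.70 and -4.96 against -1.56, -2.48 and -2.12 (2.04 ± 0.34, adjusted p = 0.00146), with only 1 of 3 steady arrays well above background. H3c15, a replication-dependent histone H3 gene, went from 2.07, 2.54 and 2.21 to 0.18, -0.51 and 0.80 (-2.07 ± 0.34, adjusted p = 0.0014), and its near-identical copies may share the probe. Fam222a (-2.0 ± 0.39) and Fam89a (-1.75 ± 0.29) were lower in the same way (adjusted p = 0.00458 and 0.00137). Serpina5, a protease inhibitor, had a change of -1.80 ± 0.40 (adjusted p = 0.0135), lost in 3 of 6 fits without a mouse. Further genes had no array of the lower group well above background, so that only a bound holds, taken against the lowest reliable signal of those arrays. Loxl4, a lysyl oxidase, was at least 2.19-fold lower, and Zbtb7c, Dhrs9, Tmem171 and Ptk6 at least 1.22-, 1.15-, 1.12- and 1.07-fold lower (adjusted p from 0.000133 to 0.0499). Of the 6 fits without a mouse, Tmem171 was called in 6, Loxl4 in 5, Dhrs9 in 2 and Zbtb7c and Ptk6 in 1. Aunip, an Aurora kinase partner, was at least 2.02-fold higher (adjusted p = 0.0224), and called in 1 of those 6 fits. Ripk2, a kinase of innate immune receptors, was at least 3.80-fold higher by its mean, but its values of -3.05, 0.88 and -3.39 show that jet-lagged mouse 2 carries this. Without that mouse the change was 1.14 in place of 2.41 and the call was lost (adjusted p = 0.0701).

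The same comparison in 12-week-old mice asks how far the response depends on age and on the length of the treatment, which cannot be told apart here. At 12 weeks 654 genes were called (2.83%), 218 higher (0.943%) and 436 lower (1.89%). The comparisons share no mouse. Both ages called 261 genes, 32.5% of the 30-week and 39.9% of the 12-week calls, and 259 of these went the same way. The 803 genes called at 30 weeks had the same sign at 12 weeks in 731 cases (91.0%), against 56.6% of all genes. Their median absolute change was 0.61 at 30 weeks, where they were chosen, and 0.35 at 12 weeks. Tested directly, the difference between the ages passed for 0 genes (0%) in limma, with a smallest adjusted p of 0.0615 and 1795 genes at an unadjusted p under 0.05. Dbp changed by 3.05 at 30 and by 2.85 at 12 weeks, Nr1d2 by 1.73 and 1.82, Arntl by -2.17 and -2.50 and Elovl3 by -3.11 and -2.69. Rgs16, of largest change at 30 weeks (4.98), had 2.71 at 12 weeks and was not called there (limma, adjusted p = 0.135). Lpin1 changed by 2.48 and 1.38 (unadjusted p of the difference 0.0304). For other genes the 12-week value was small, as for Elovl6 (0.05, unadjusted p of the difference 0.0113), Alas1 (0.40, 0.0458), Cdt1 (0.19, 0.00579) and Rrs1 (-0.04, 0.000783), but no such difference passed after adjustment. Fatty acid and triglyceride synthesis had 1 higher and 10 lower members at 12 weeks and a median of -0.52, against 0.27 at 30 weeks. Cell cycle genes had a median of -0.20 at 12 weeks against 0.48. In the growth hormone list, Bcl6 and Onecut1, transcription factors of sex-biased liver expression, had differences of opposite sign at the 2 ages. That of Bcl6 was -2.0 at 30 weeks and 1.29 at 12 weeks (unadjusted p of the difference 0.000851), and that of Onecut1 2.33 and -1.77 (0.0021), and 0 of these 4 values were called.

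**Figure D5:**
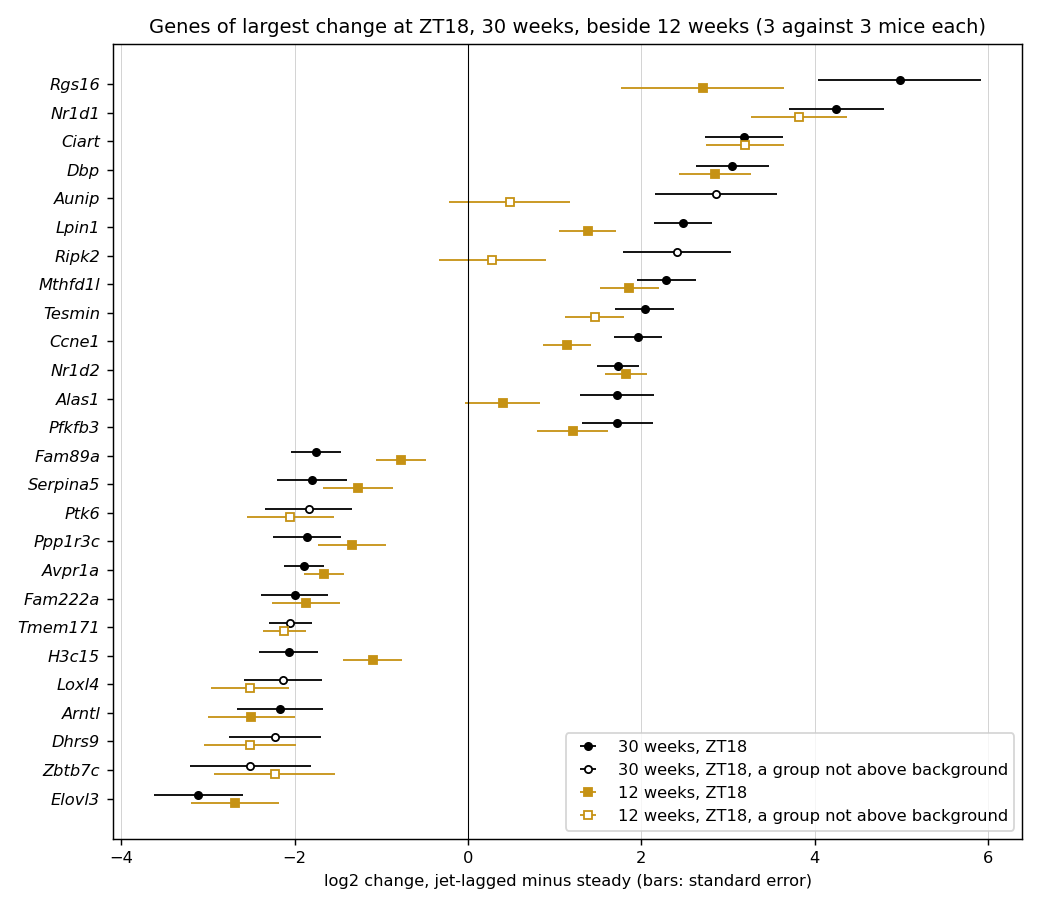
Change at ZT18, jet-lagged minus steady, of 26 genes of largest called change at 30 weeks without overlap between groups, at 30 weeks (black circles) and 12 weeks (yellow squares), on a log2 scale with standard errors and 3 mice against 3 at each age. The genes were chosen on the 30-week values. Open symbols (7 at 30 and 10 at 12 weeks) mark genes with no array of at least 1 of the compared groups well above background, whose size is not measured, and for Aunip, Ripk2 and Tmem171 this holds for both groups at 12 weeks. The filled 12-week values lie on the same side as those at 30 weeks, with that of Alas1 (0.40) near 0.

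At ZT10, 8 h earlier in the cycle, the same schedules at 30 weeks gave 170 called genes (0.736%), of which 27 were also called at ZT18. Of the 803 genes called at ZT18, 349 had the same sign at ZT10 (43.5%), against 49.6% of all genes. The difference between the schedule effects at the 2 times passed for 449 genes (1.94%), 11 of the 24 core clock genes and 11 of the 29 output genes among them. It was positive for 291 and negative for 158 (260 and 226 with arrays scaled to the median of probes detected throughout). Without steady mouse 2 of the ZT10 group 287 passed, and without steady mouse 2 of the ZT18 group 227. Arntl was lower by 2.17 at ZT18 and higher by 2.73 ± 0.50 at ZT10 (adjusted p = 0.0151), a difference of -4.90 ± 0.73 (adjusted p = 0.00146). Its steady level at ZT10 was well above background on 1 of 3 arrays, so the size of these last values is uncertain, as is that of the next gene. Nr1d1 was higher by 4.25 at ZT18, against a value of -0.95 at ZT10 that did not pass (adjusted p = 0.526), a difference of 5.19 ± 0.81 (adjusted p = 0.00151). Nfil3, not called at ZT18, was called at ZT10 (1.46 ± 0.26, adjusted p = 0.0113), and its difference was -2.24 ± 0.38 (adjusted p = 0.00303). The cell cycle list had 2 lower members at ZT10, Ccnd1 (-1.21, adjusted p = 0.0143) and Cdt1 (-1.05, adjusted p = 0.0172), both higher at ZT18. At ZT10 Rgs16 had a value of -0.44 and Elovl3 of -0.45, and neither passed. Of the 26 sterol genes 2 were lower at ZT10, and the difference between the times passed for 0 of them.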

How the data were processed

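Liver RNA of 32 mice was measured on 1-colour Agilent arrays, and the 6 arrays of 30-week-old mice at ZT18 are reported. The authors deposited each array's scanner output, whose processed signal is a background-subtracted, detrended intensity (Agilent Feature Extraction 11.0.1.1 per the file headers, 9.1 per the submitters' processing notes). The authors also deposited a log2 table, normalised and with an unnamed batch effect removed (16795 rows, 15148 probes, column medians 9.83 to 9.90). Its 32 columns each correlated best with their own array (smallest r 0.994), and it served as an alternative.

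Control spots (3671 of 62976) and outlier spots were dropped and the spots of a probe averaged. Log2 values were scaled to each array's 75th percentile over all probes. Probes well above background on every array of at least 1 group were kept (30488 of 55681). Identifiers matched to RefSeq gave 26582 probes a symbol and 29099 none. The brightest probe stood for a gene, giving 23110 genes, 14082 with a symbol, 10 of them with a missing value on at least 1 of the 6 arrays. No genome was used.

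Group means over all 12 groups were fitted with limma 3.58.1 (R 4.3.3), with slide as a random block (8 slides, correlation 0.254) and eBayes (2.29 prior degrees of freedom), since a group has 2 or 3 mice. The labels number mice within groups and state no pairing, and scan dates follow slides. Tested on simulated data of 22989 genes for this comparison, the script called 38.8%, 61.2% and 93.9% of genes changed 1.5-, 2- and 4-fold, and 4 of 133 calls were unchanged genes. The simulation drew normal noise with the fitted slide correlation, and held no outlying mouse and no RNA of other tissues. Its rates therefore need not hold for the real arrays. Precision is limited by the number of arrays. The background correction normexp (offset 50) was run on the median signals. Other alternatives covered normalisation, probe filters, the probe rule, slide, mice and marker covariates.

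Named genes were the 14 higher and 14 lower called genes of largest change with a plain symbol, no overlap between groups, and r under 0.8 with muscle and acinar markers over the other 26 arrays. To these came all core clock genes, up to 5 members per list, and 5 genes per direction of each difference. Other list members are named with their values as called members or as known key enzymes, chosen after their values were seen. Some genes are not reported here by name, and counts over lists include them. The lists and members were chosen with earlier results of these data known.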

Additional observations from a re-analysis of the deposited data

Results flagged for a closer look

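At 30 weeks the schedule effect differed between ZT18 and ZT10 for 449 of 23110 genes, by a test of the difference itself (limma, adjusted p under 0.05), with 291 higher and 158 lower at ZT18 relative to ZT10. The differences, in log2 units, were positive for Rgs16 (5.42), Nr1d1 (5.19), Ciart (4.15), Dbp (4.12), Bhlhe41 (2.65), Nr1d2 (2.00) and Tef (1.16). Among the clock genes they were negative for Arntl (-4.90), Cry1 (-3.00), Nfil3 (-2.24) and Clock (-1.46). Lipg, the endothelial lipase, had a difference of 3.03. The size of several of these is uncertain. At ZT18 Lipg and Bhlhe41 were well above background in 0 of 3 steady mice, Nr1d1 in 1 and Ciart in 2, and Bhlhe41 in 1 of 3 jet-lagged mice at each time. At ZT10 Arntl and Cry1 were well above background in 1 of 3 steady mice, and Lipg in 1 of 3 jet-lagged mice. H3c15, a histone gene, had -3.19, the acyltransferase gene Acnat2 -2.69 and the glycogen-targeting gene Ppp1r3c -2.68.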

How the results depend on the processing

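For jet lag against steady at ZT18 and 30 weeks, 803 genes passed. The count was 485 with no filter on dim probes, 347 with the slide as a fixed block (34.6% of them higher, against 49.1%), 54 when only the 6 arrays were fitted and 1722 of 12693 genes in the authors' deposited table fitted without a slide block. Leaving out 1 mouse gave 266 (without steady mouse 2) to 603. Normalisation, normexp, the other probe filter, the mean of probes, no slide block, the marker covariates and the genes of the deposited table alone (the last chosen after seeing the data) gave 579 to 1036. The share of higher genes was 57.5% with no slide block. The median change over all genes was farthest from 0 with no filter on dim probes, at 0.04. Between ages 0 genes passed. Quantile normalisation gave 3, probes well above background on all arrays compared 3, the mean of probes 4, the genes of the deposited table only 1, and leaving out 1 mouse 0 to 4 (4 without steady mouse 3 and 1 without jet-lagged mouse 1 at 30 weeks, 3 without steady mouse 1 at 12 weeks). For ZT18 against ZT10, 449 became 231 with no filter, 64 with the slide as a fixed block, 136 with only the arrays compared and 1246 in the deposited table without a block. Without 1 mouse it was 227 (without steady mouse 2 of the ZT18 group) to 552, and by scaling to the median 53.5% were higher against 64.8%. With the replicate block and only the arrays compared the counts were 1, 0 and 63, against 54, 0 and 136 on those arrays without it. Mice of the same number deviated from their group means with correlations of 0.06, -0.12 and -0.43, and the numbers state no pairing.

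Of 74 called named genes 26 passed without each of the 6 mice in turn, and 66 with normexp, 38 with the slide as a fixed block and 18 with the 6 arrays alone. Dnajb11 reversed to 0.73 with the mean of its probes. Probes near background limit the genes given as bounds.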
